A study of Mus musculus with 6 samples.

Results

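The first response of the uterus to progesterone was read from 2 of the 6 arrays of a time series: the array 6 h after injection was set against the array of uninjected mice, called 0 h. All 6 arrays held RNA of uterine horns from wildtype females of the inbred strain 129/SvImJ, aged 10 to 16 weeks, whose ovaries had been removed 14 days earlier. Mice of the 6 h group had received 0.2 mg of progesterone under the skin in 0.1 mL of sesame oil, and the 0 h mice had received nothing. Each array carried 1 pool of 8 horns from 4 mice. Each of the later arrays, of which the 12 h array is used most here, is another pool of mice given the same dose and taken at a later time. No array of mice given oil alone was used here, so injection, vehicle and hormone cannot be told apart, and neither can hours after injection and hour of the day. With 1 array per time there is no replicate check, no error and no test: "higher" and "lower" describe these pools only, and a gene is counted when its 2 levels lie at least 2-fold apart.

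Progesterone enters cells and binds its receptor, the transcription factor Pgr, which then sits on DNA elements that it shares with the receptors for glucocorticoids and mineralocorticoids. In the uterus of an ovariectomized mouse, which receives no ovarian steroid, the hormone acts on epithelium, stroma and muscle, and its epithelial targets include Ihh, a secreted hedgehog ligand that signals to the stroma below. Genes that answer within hours include direct targets of the receptor, while later ones may depend on proteins made in between. RNA came from whole horns, so fewer cells of a type and less RNA per cell cannot be told apart in any value below.

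The levels are the deposited log2 expression values of single probe sets, the groups of short probes that each measure 1 transcript. Of 12487 probe sets, 65 controls were left out, values under the 40th percentile of the table (6.60, or 96.9 on the linear scale) were raised to that floor, and a probe set was analysed if 2 or more of its 6 values passed the floor, which 7731 did. They name 5915 genes. A difference from a floored level is a lower limit of the size and is written "at least". The receptor itself was measured on 1 probe set, with log2 levels of 8.46, 8.24 and 8.32 at 0, 6 and 12 h. Of the 4 probe sets for the estrogen receptor Esr1, the one with the highest level was lower at 6 h by a log2 difference of -0.66 and the others differed by -0.14 to 0.06. The glucocorticoid and mineralocorticoid receptors (Nr3c1 and Nr3c2) had no analysed probe set.

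Promoter sequences show where elements of this kind lie in the genes that answered. Windows from 250 bases before to 50 bases after the transcription start were taken from RefSeq (build GRCm38.p6) and searched on both strands for the 15-base steroid receptor element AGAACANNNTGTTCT, with up to 1 mismatch in its 12 specified bases, and for the endoplasmic reticulum stress element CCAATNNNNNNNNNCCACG, which promoters of folding chaperones carry. Of the 96 genes at least 2-fold higher at 6 h, 84 had a window. The 5 windows below are those of higher genes that hold either element, and the capitals mark its specified bases. Sgk1, at chr10:21993640-21993939 on the plus strand, has the steroid element without a mismatch from base -189 to -175. Hdc, at chr2:126618629-126618928 on the minus strand, has it with 1 mismatch from -146 to -132. The stress element lies from -126 to -108 in Creld2 (chr15:88819396-88819695, plus strand; here the element reads on the opposite strand), from -65 to -47 in Hspa5 (chr2:34771840-34772139, plus strand) and from -105 to -87 in Dnajc3 (chr14:118937682-118937981, plus strand).
Sgk1: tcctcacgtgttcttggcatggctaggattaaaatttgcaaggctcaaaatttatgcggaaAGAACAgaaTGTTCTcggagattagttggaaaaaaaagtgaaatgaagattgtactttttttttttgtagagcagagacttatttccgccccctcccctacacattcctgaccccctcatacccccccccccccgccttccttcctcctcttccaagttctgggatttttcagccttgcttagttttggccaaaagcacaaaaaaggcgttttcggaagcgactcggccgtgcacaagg
Hdc: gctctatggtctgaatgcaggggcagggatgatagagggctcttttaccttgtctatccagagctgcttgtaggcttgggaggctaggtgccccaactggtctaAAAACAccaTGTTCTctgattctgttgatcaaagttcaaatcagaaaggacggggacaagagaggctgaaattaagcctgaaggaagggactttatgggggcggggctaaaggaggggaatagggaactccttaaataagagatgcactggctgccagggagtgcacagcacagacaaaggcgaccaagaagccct
Creld2: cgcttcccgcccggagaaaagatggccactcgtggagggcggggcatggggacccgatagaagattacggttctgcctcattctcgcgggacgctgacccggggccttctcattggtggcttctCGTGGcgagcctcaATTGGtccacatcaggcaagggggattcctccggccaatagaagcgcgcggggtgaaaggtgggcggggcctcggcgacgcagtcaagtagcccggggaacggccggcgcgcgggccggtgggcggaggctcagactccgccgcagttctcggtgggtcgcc
Hspa5: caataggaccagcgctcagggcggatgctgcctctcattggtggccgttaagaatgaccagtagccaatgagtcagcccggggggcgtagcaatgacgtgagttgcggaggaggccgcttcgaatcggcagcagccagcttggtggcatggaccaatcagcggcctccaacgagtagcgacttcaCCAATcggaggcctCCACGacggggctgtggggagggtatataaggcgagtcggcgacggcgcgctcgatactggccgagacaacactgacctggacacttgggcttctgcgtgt
Dnajc3: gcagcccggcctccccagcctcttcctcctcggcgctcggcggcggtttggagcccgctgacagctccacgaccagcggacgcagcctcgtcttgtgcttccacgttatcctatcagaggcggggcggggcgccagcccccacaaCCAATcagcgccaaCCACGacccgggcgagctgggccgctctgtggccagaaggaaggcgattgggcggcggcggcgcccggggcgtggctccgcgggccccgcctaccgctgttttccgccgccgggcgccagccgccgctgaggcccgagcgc

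The exact steroid element was rare in these windows. It occurred in 1 of the 4754 analysed genes with a window, Sgk1, and in 3 of the 27025 genes of the whole promoter table. With up to 1 mismatch it occurred in 6 analysed genes (0.126%), of which Sgk1 and Hdc were at least 2-fold higher at 6 h. The others were Plpp3, Psph, Serpinf2 and Car14, with log2 differences of 0.62, -0.03, -0.06 and -0.19. No window of the 55 lower genes that had one held it. The single arm AGAACA was found in 14.3% of the higher genes, 21.8% of the lower genes and 15.4% of all analysed genes. The E-box CACGTG occurred in 13.1% of higher, 9.09% of lower and 12.2% of all analysed genes, and the sterol element TCACNCCAC in 2.38%, 3.64% and 1.62%. The cyclic AMP element TGACGTCA was found in 5.95%, 1.82% and 3.34%, and its first letters TGACG, which also count every whole element, in 45.2%, 18.2% and 35.7%. A match is a description of letters in a short window and says nothing of binding, and elements further away were not searched.

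Of 7719 probe sets with a value on both arrays, 6921 (89.7%) lay within 1.5-fold. At least 2-fold higher at 6 h were 109 probe sets of 96 genes (1.41% of those tested), and 85 probe sets of 76 genes (1.1%) were at least 2-fold lower. At least 4-fold were 13 probe sets higher and 1 lower, and at least 8-fold 4 higher and 0 lower. The sides were not open to the same sizes, since no level can fall below the floor of 6.60. A probe set at the 0 h median of 8.20 could be counted as 4-fold higher but not as 4-fold lower. The median log2 level of the higher probe sets was 7.66 at 0 h and 9.11 at 6 h, against 8.20 at 0 h for all analysed probe sets. For the lower ones it was 8.88 at 0 h and 7.52 at 6 h. Both groups were chosen by a difference that contains the 0 h level, and the floor leaves low starts no room to fall. These medians are therefore no separate result. The threshold lay in the tails of the distribution but not at a gap in the values. Slain1 was just inside it at 1.007 and Nifk just outside at 0.9997. On the lower side Ltf was just inside at -1.002 and Fdft1 just outside at -0.9998.

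**Figure D1:**
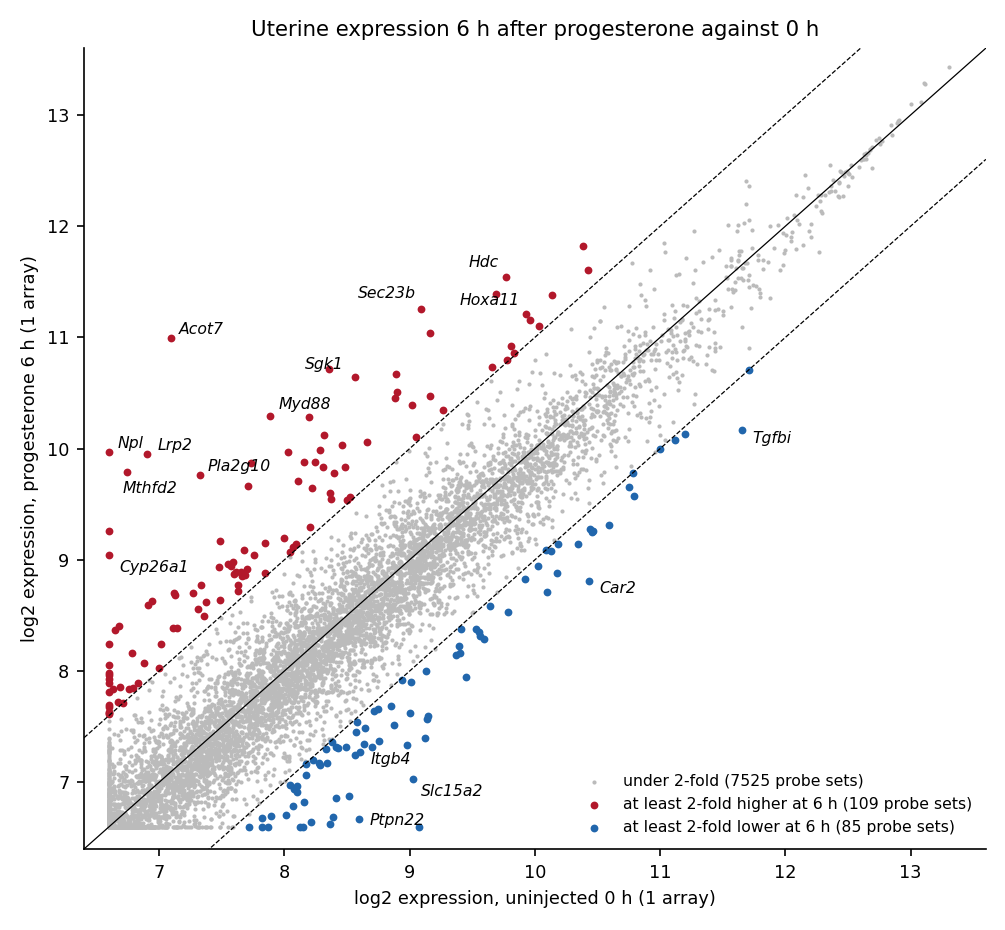
Log2 expression of each analysed probe set on the 0 h array (x axis) and the 6 h array (y axis), 1 array each; the solid line marks equal levels, the dashed lines 2-fold, and points along the edge sit at the floor of 6.60. The 109 higher probe sets (red) lie mostly over low levels at 0 h, and the 85 lower ones (blue) are closer to the dashed line than the highest genes Acot7, Npl, Lrp2 and Mthfd2.

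The largest differences were in a metabolic enzyme, an endocytic receptor and enzymes of sugar and folate breakdown and synthesis. Acot7, a thioesterase that splits long-chain acyl-CoA, had log2 levels of 7.09, 11.00, 11.26, 11.43, 11.03 and 11.22 at 0, 6, 12, 15, 18 and 24 h. Its 6 h difference of 3.90 was the largest of all, and no later array differed from the 6 h array by as much as 2-fold. Npl, the lyase that breaks down sialic acid, was at the floor at 0 h and at 9.97, 10.57, 10.66, 10.19 and 10.18 afterwards, at least 3.37 higher at 6 h. Lrp2, the endocytic receptor megalin, went from a log2 level of 6.90 to 9.95 at 6 h and 10.21 at 12 h. Mthfd2, a mitochondrial folate enzyme that is high in growing cells, had levels of 6.74, 9.79 and 10.06 at these times. These were the 4 genes at least 8-fold higher, and all 4 stayed so at 12 h. They depend on where weak values are floored, since their 0 h levels lie near the floor: after raising the floor to the 60th percentile the log2 differences were 3.29 for Acot7, 2.27 for Npl, 2.25 for Lrp2 and 2.09 for Mthfd2. Other calls in this text that ended at that floor were those of Hk2, Gadd45a, Nop56, Ltv1, Pno1, Slain1, Gbp3, Cryz, Upk3b, Ptdss2 and Alox15, and of the second P4ha2 probe set. Genes above that floor on fewer than 2 arrays had no value there, among them Cyp26a1, Fos, Dnajb11, Itgb4, Lama3, Lifr, Ptpn22, Abca4, Psmb9 and Ifit1.

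Transport, signalling and lipid genes followed. Slc2a3, the glucose transporter GLUT3, was at least 2-fold higher on both of its probe sets, with log2 levels of 8.36, 10.72 and 10.08 at 0, 6 and 12 h on the one above the floor. Pla2g10, a secreted phospholipase A2 that frees arachidonic acid, had levels of 7.32, 9.76 and 10.41. Myd88, the adaptor of Toll-like and interleukin 1 receptors, was at 7.88, 10.30 and 10.08. Each of the 3 stood more than 2 log2 units above 0 h at 6 h, and Pla2g10 was further above it at 12 h. Atp1b1, a subunit of the sodium pump, had levels of 7.73, 9.87 and 9.87, Xpnpep1, a cytosolic aminopeptidase, 8.03, 9.97 and 9.93, and Bcat1, which transaminates branched-chain amino acids, 8.89, 10.67 and 10.37. Acta1, the actin of skeletal muscle, was at 9.16, 11.04 and 11.20. It stood apart from the other genes of that tissue: of 13 skeletal and cardiac muscle markers it was the 1 that was 2-fold higher, and the median log2 difference of the list was -0.08. Hnrnpll, an RNA-binding splicing regulator, was at 8.32, 10.12 and 10.00.

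Several of the largest values rest on 1 probe set of 2. Sec23b, a coat protein of vesicles that leave the endoplasmic reticulum, was 2.17 higher on 1 probe set. Its other probe set differed by exactly 0, as happens when both levels are raised to the floor, and then shows nothing either way. Igf1, insulin-like growth factor 1, was 1.96 higher on 1 and 0.02 on the other, and Gstm2, a glutathione transferase, 1.71 and 0.18. Of the 29 genes that were 2-fold on a probe set and had several analysed, 6 were at least 2-fold on all (Adh5, Capg, Errfi1, Igfbp3, P4ha2 and Slc2a3). In 17 another probe set was under 1.5-fold, and in 5 of the 29 it had the opposite sign. Pnkd, Noct, Tubb2a and Angptl4 were among these last, Angptl4 with 2 probe sets higher by 1.38 and 1.03 and the other lower by -0.41. Galm, a sugar mutarotase, was 2-fold higher on 3 of 5.

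Transcription regulators and kinases known as steroid-induced genes were high at 6 h. Zbtb16, the zinc finger protein PLZF, had log2 levels of 8.19, 10.28, 9.54, 9.38, 8.80 and 9.09 over the 6 arrays, and its other probe set was 0.40 higher at 6 h. Sgk1, a kinase that raises sodium uptake and carries the exact element printed above, had levels of 8.56, 10.64, 9.68, 9.12, 8.14 and 8.69. Both were highest at 6 h, and Sgk1 was below its 0 h level at 18 h. Fkbp5, a co-chaperone that lowers hormone binding by steroid receptors, had levels of 8.31, 9.83, 9.16, 8.92, 8.64 and 9.17. Errfi1, an inhibitor of the EGF receptor, was higher on both probe sets at 6 h (by 1.57 and 1.02) and near 0 h at 12 h (0.37 and 0.13). Lcn2, the iron-carrier-binding protein lipocalin 2, had levels of 7.63, 8.77 and 7.87 at 0, 6 and 12 h, and was at the floor at 18 and 24 h. Of the 33 analysed genes listed as induced by progestin and glucocorticoid alike, 6 were at least 2-fold higher and 1 lower at 6 h, where 1.54% and 1.2% of all 5906 genes with a 6 h value on their 1 chosen probe set were. The list's median log2 difference was 0.15 at 6 h and -0.02 at 12 h, against -0.06 and 0.03 over all genes. Members under 2-fold included the metallothioneins Mt1 and Mt2 (0.68 and 0.65), the phosphatase Dusp1 (0.54) and Cdkn1c, an inhibitor of cyclin-dependent kinases (-0.77). The 1 lower member was Irs2, an insulin receptor substrate, at -1.19. Sgk1, Fkbp5, Zbtb16, Errfi1 and Irs2 are also among the progesterone receptor targets counted next, so the counts overlap. Of 31 analysed estrogen-responsive genes of the uterus, 6 were at least 2-fold higher and 3 lower at 6 h. A share of this size was therefore not particular to the progestin and glucocorticoid list.

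Among 41 analysed genes listed as progesterone receptor targets of the uterus, 15 were 2-fold or more above 0 h (1.54% of all genes were) and 5 that far below it (1.2% of all genes). The list was chosen with results of these arrays known, so these counts are not independent of them. Its median log2 difference was 0.32 at 6 h and 0.17 at 12 h. Cyp26a1, an enzyme that degrades retinoic acid, started at the floor, had log2 levels of 9.04 at 6 h and 7.31 at 12 h, and lay on the floor again from 15 h on. Its 6 h array was the 1 high value. Hdc, the enzyme that makes histamine, had log2 levels of 9.77, 11.54, 11.54, 11.44, 11.03 and 11.26, high on all 5 arrays after injection. Acod1, which makes itaconate and is also known as Irg1, was at the floor at 0 h and at 7.96, 8.86, 8.73, 8.55 and 9.16 afterwards. With the floor at the 60th percentile its 6 h difference was 0.26. Fst, the activin-binding protein follistatin, was at the floor at 0 h and at 8.25, 7.23, 7.14, 7.09 and 8.07 afterwards, a difference of at least 1.65 at 6 h that was 0.54 with the higher floor. Il13ra2, a decoy receptor for interleukin 13, was at least 1.02 higher. The lower members were Tgfbi, Irs2, Igfbp3, Alox15 and Ltf.

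Hedgehog signalling was represented by its ligand and one transcriptional target. Ihh had log2 levels of 8.22, 9.64, 9.38, 9.10, 8.56 and 8.73, highest at 6 h. Gli1, a transcription factor induced by hedgehog signals, was at 8.14, 8.99 and 9.13 at 0, 6 and 12 h, under 2-fold at both times. The receptor Ptch1 and the stromal factor Nr2f2 were under 2-fold at 6 h, and 1 of 10 analysed members of this list passed. Of the homeobox and developmental transcription factors, Hoxa11 was 1.28 higher (9.93, 11.21 and 10.72), Gata2, which cooperates with Pgr, 1.02 higher (9.78, 10.80 and 10.69) and Pax8 1.10 lower on the log2 scale (8.28, 7.18 and 7.33). Hoxa10, needed for implantation, was at 9.47, 10.30 and 10.12. In all, 2 of the 46 genes of that list were higher and 1 lower. Beside each count of this paragraph stand 1.54% of all genes higher and 1.2% lower. WNT signalling also had 2 higher members, of 35: the receptor Fzd1, at 6.68, 8.40 and 8.01, and the ligand Wnt11, at 7.75, 9.05 and 8.40. The call of Fzd1 ended with the floor at the 60th percentile.

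**Figure D2:**
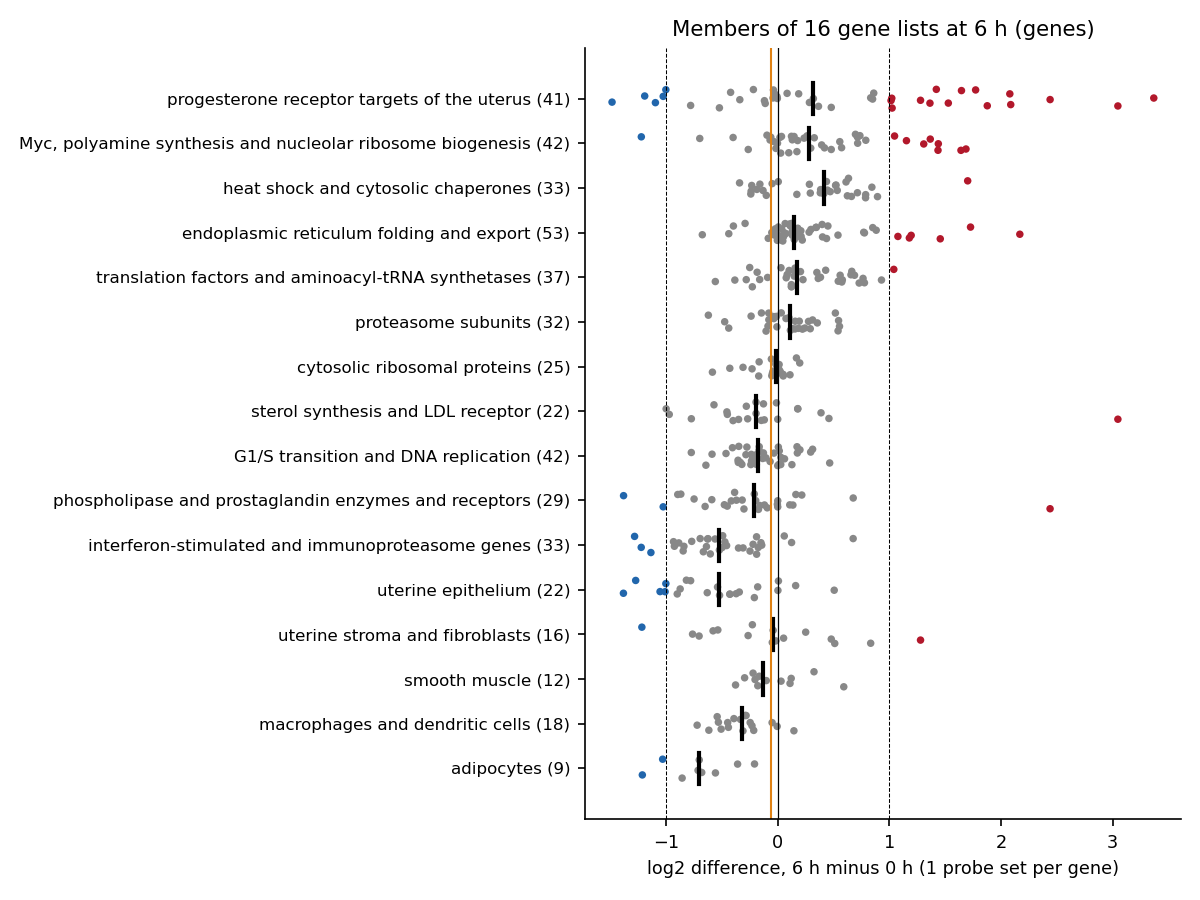
Log2 difference of each member of 16 gene lists at 6 h against 0 h, 1 probe set per gene; red and blue points are at least 2-fold higher and lower, black bars are list medians, dashed lines mark 2-fold and the orange line is the median of all named genes at -0.06. Progesterone targets spread from 3.37 down to -1.48, while members of the interferon, epithelium and adipocyte lists lie mostly below 0.

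Genes of the endoplasmic reticulum, where secreted proteins are folded, were higher at 6 h and more of them at 12 h. Manf, a secreted protein released under folding stress, had log2 levels of 8.16, 9.88, 10.04, 9.80, 8.86 and 8.79 over the 6 arrays. Creld2, another such protein, had 7.48, 8.94, 8.94, 8.55, 7.85 and 7.89. Hspa5, the main chaperone BiP, had 9.96, 11.15, 11.26, 10.90, 10.32 and 10.28. All 3 were high at 6, 12 and 15 h and lower from 18 h on. Dnajc3 and Dnajb11, co-chaperones of Hspa5, were 1.18 and at least 1.08 higher at 6 h. With Sec23b these made 6 of 53 members at least 2-fold higher and 0 lower at 6 h, where 1.54% and 1.2% of all genes were. At 12 h 13 of the 53 were higher and 1 lower, where 1.85% and 1.81% of all genes were. The list's median log2 difference went from 0.14 to 0.49, and that of all genes from -0.06 to 0.03. Disulfide isomerases belonged to the later part: Pdia6 was at 8.84, 9.62 and 10.59 at 0, 6 and 12 h, Pdia3 at 9.24, 9.29 and 10.45 and Pdia4 at 8.13, 8.35 and 9.22. Kdelr3, which returns chaperones from the Golgi, was at 7.25, 7.22 and 8.60. Ddit3, a transcription factor of prolonged folding stress, was lower, at 8.25, 7.57 and 7.24.

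The stress element was present in 10 of the 4754 analysed genes with a window (0.21%), 3 of the 84 higher genes (3.57%) and 0 of the 55 lower ones. Creld2, Hspa5 and Dnajc3 are printed above. Pdia6, Hsp90b1 and Canx, chaperones or isomerases that also hold it, had 6 h differences of 0.78, 0.54 and 0.13 and 12 h differences of 1.74, 1.13 and 0.86. Zfp57, Adcy3, Ptgdr2 and Pan2 hold it too, with log2 differences from -0.32 to 0.22 at 6 h. Of the 10 genes, 6 are on the folding list.

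Among the cytosolic chaperones 24 of 33 genes were above 0 at 6 h, as were 2301 of all 5906 genes. On this list 1 was at least 2-fold higher, where 1.54% of all genes were. Hsph1, a partner of Hsp70, was at 8.29, 9.99 and 9.88 at 0, 6 and 12 h, and was the 1 of 33 heat shock genes past 2-fold. A further look at 1.5-fold counted 10 of 33 higher and 0 lower, where 4.64% of all genes were that much higher and 6.06% lower. The list's median log2 difference was 0.41, the highest of the lists drawn in the plot of list members. Hsp90aa1, which holds steroid receptors ready to bind hormone, was at 10.77, 11.67 and 11.53, and the chaperonin subunits Cct3, Cct6a and Cct8 were 0.62, 0.52 and 0.53 higher. Hspa1a was at 8.87, 9.71 and 8.84, back at its 0 h level by 12 h. For the steroid receptors' own partners the picture was mixed: Fkbp5 was the 1 of 22 members past 2-fold, and the list's median was -0.15.

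Nucleolar genes, which make ribosomes, formed the next group, on 1 list with Myc and polyamine synthesis. Myc, a transcription factor that drives nucleolar genes in many cells, had log2 levels of 7.33, 8.77, 8.29, 8.19, 8.01 and 8.17. Rrs1, a ribosome assembly factor, was at 7.48, 9.17 and 8.63 at 0, 6 and 12 h, Gnl3, the GTPase nucleostemin, at 7.27, 8.70 and 8.49, and the helicase Ddx21 at 7.57, 8.94 and 8.82. Srm, which makes the polyamine spermidine, was at 8.24, 9.88 and 10.02. With Tsr1, Nop56 and Nop58, 8 of 42 members were at least 2-fold higher at 6 h, where 1.54% of all genes were. The list's median log2 difference was 0.28 at 6 h and 0.33 at 12 h, and 32 of its 42 members lay above 0 at 6 h, as did 2301 of all 5906 genes. The 1 lower member was Mxi1, an antagonist of Myc, at 9.37, 8.15 and 8.03. Outside the list, Bysl, Ltv1, Pno1 and Ftsj3, which act in ribosome assembly, were 1.58, 1.37, 1.25 and at least 1.01 higher. They were picked for their values and so are no addition to the count. The ribosomal proteins themselves were level, with 0 of 25 past 2-fold and a median of -0.02.

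Of the genes for amino acid charging and supply, 1 of 37 and 2 of 33 were 2-fold higher at 6 h, where 1.54% of all genes were. Gars, which loads glycine onto tRNA, was at 8.52, 9.56 and 9.28, the 1 of 37 translation genes past 2-fold. Other synthetases were under 2-fold at 6 h and some reached it at 12 h: Tars was 0.93 and 1.07 higher, Farsb 0.76 and 1.01, and Mars1 0.66 and 1.01. The elongation factors Eef1a1 and Eef2 were at 0.03 and -0.18 at 6 h, and the list's median log2 difference was 0.17 at 6 h and 0.37 at 12 h. The supply list had a median of 0.01 at 6 h, with 15 of 33 below 0, as were 3502 of all 5906 genes. Beside Mthfd2 and Bcat1, none of the other 31 genes of serine, one-carbon and amino acid supply was 2-fold apart at 6 h. Atf4, the factor that induces many of them, was at 9.46, 10.31 and 9.91. Ctps, which makes CTP, and Fpgs, which keeps folate in the cell, were 1.39 and 1.05 higher at 6 h. In glycolysis, Hk2 was at least 1.21 higher beside Slc2a3, Aldoc was 1.70 lower on the log2 scale (8.39, 6.69 and 6.60) and the other 27 of 30 genes were under 2-fold, with a list median of -0.11.

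Cell cycle genes were close to 0 h. None of 42 genes of the G1/S transition and DNA replication was 2-fold apart on its chosen probe set at 6 h, and the median log2 difference was -0.18. Among all genes 1.54% were at least 2-fold higher at 6 h and 1.2% lower. Ccnd1, the cyclin of early G1, was at 9.25, 8.61 and 9.53 at 0, 6 and 12 h. Mcm5, a subunit of the replicative helicase, was 1.55 lower on the log2 scale on 1 probe set, which has no value from 15 h on, and 0.41 lower on the other. Of 21 mitosis genes, Nde1, a centrosome protein, was higher, at 6.91, 8.60 and 9.14. That call ended with the floor at the 60th percentile. Sterol synthesis was likewise under 2-fold at 6 h, with Lrp2 as the 1 of 22 members past it and a median of -0.19. At 12 h 5 were higher, where 1.85% of all genes were, namely Lrp2, Sqle, Msmo1, Idi1 and Fdps. Fdps was at 7.68, 7.23 and 8.82, and Idi1 at 6.61, 6.60 and 8.06.

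Immediate-early genes, which growth signals switch on within the hour, were taken as 1 list with growth brakes. Of 43, 4 were higher (Myc, Fos, Rhob and Errfi1) and 2 lower (Tgif1 and Gadd45a), where 1.54% and 1.2% of all genes were. The list's median log2 difference was 0.06 at 6 h and -0.16 at 12 h. Fos started at the floor, had log2 levels of 7.93, 7.15 and 6.81 on the 6, 12 and 15 h arrays, and lay on the floor later. Tgif1, a repressor of TGF-beta signals, was at 9.13, 7.40, 7.57, 7.70, 7.84 and 8.07, low on all 5 arrays. Genes of the circadian clock went both ways. Per2 was at 7.03, 7.82 and 6.60 at 0, 6 and 12 h, and Cry1 at 8.21, 8.86 and 8.52. Dbp, a clock output, was at 9.39, 8.23 and 6.60, and Nr1d2 at 9.71, 9.17 and 8.06. Hours after injection and hour of the day cannot be told apart for these genes. Nfil3, which represses Dbp targets, was at least 1.38 higher on 1 probe set and 0.12 on the other.

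**Figure D3:**
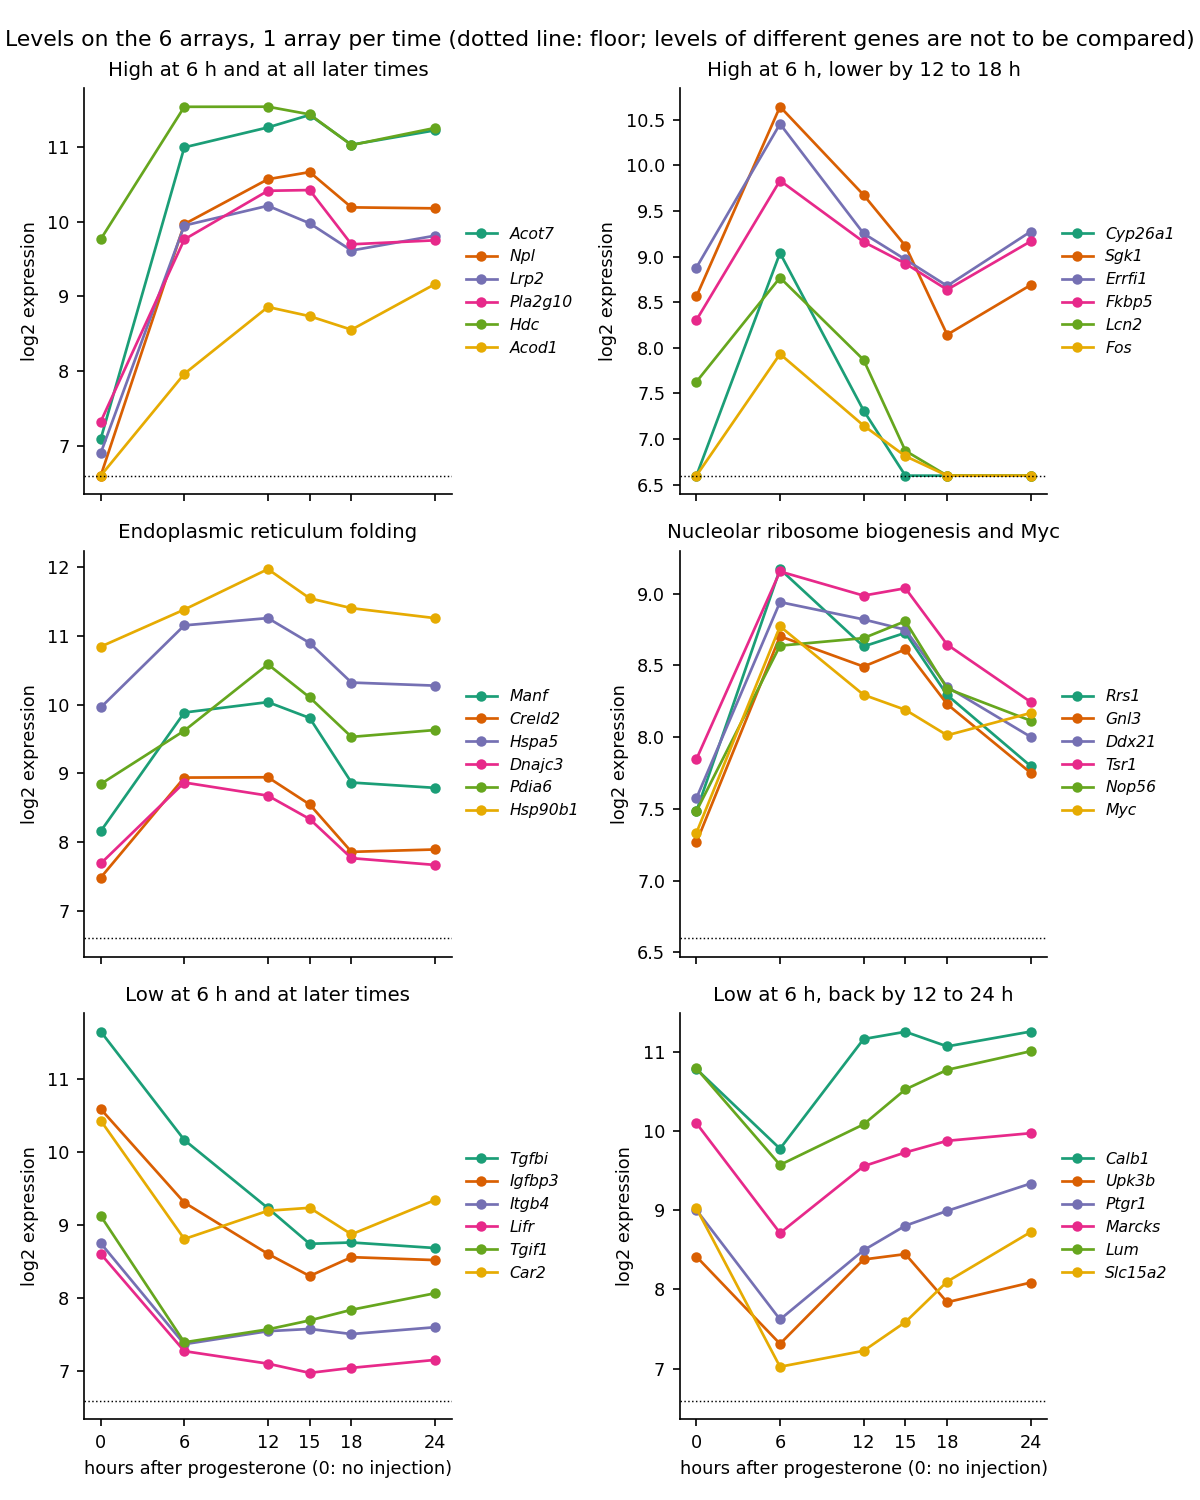
Log2 expression on all 6 arrays, 1 array per time (x axis, hours after progesterone, 0 for no injection), for 6 genes in each of 6 panels; the dotted line is the floor at 6.60 and each gene is the probe set with its largest 6 h difference. Acot7, Npl, Lrp2, Pla2g10, Hdc and Acod1 are high at every later time, Cyp26a1 and Fos return to the floor where they started, Lcn2 reaches it at 18 h from a higher start, and Calb1, Upk3b and Marcks are lowest at 6 h.

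On the lower side, the deepest named difference was that of Slc15a2, a transporter of small peptides, with log2 levels of 9.02, 7.02, 7.23, 7.59, 8.10 and 8.73. It was lowest at 6 h and within 1.5-fold of 0 h at 24 h, and its 6 h difference was -1.32 with the higher floor. Abca4, a lipid transporter, was at 8.36, 6.62 and 6.84 at 0, 6 and 12 h, and Car2, a carbonic anhydrase, at 10.43, 8.81 and 9.20. Clca1, a secreted regulator of chloride channels, was at 9.56, 8.32 and 7.30 and at the floor later. Fxyd3, a partner of the sodium pump, was at 10.44, 9.28 and 9.70. Together these 5 were the lower members among 40 transport genes, and Atp1b1 was the 1 higher member, where 1.2% of all genes were lower and 1.54% higher. Tspan8, a membrane protein of epithelia, was at 8.98, 7.33 and 7.92, and Efhd1, a mitochondrial protein that binds calcium, at 9.14, 7.57 and 7.99. One probe set with no gene name was lower still, by at least 2.48.

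Of the matrix list, 4 of 58 genes were at least 2-fold lower and 1 higher at 6 h, where 1.2% and 1.54% of all genes were. The list's median log2 difference was -0.11 against -0.06 for all genes. The lower ones were Lama3, Lamb3, Tgfbi and Lum. Itgb4, on the list of epithelial markers, is an integrin of the plaques that fix epithelial cells to the basement membrane and had log2 levels of 8.75, 7.37, 7.55, 7.58, 7.51 and 7.60. Lama3 and Lamb3, chains of the laminin that it binds, were at 7.87 and 8.17 at 0 h, 6.60 and 7.07 at 6 h, and 6.62 and 6.69 at 12 h. All 3 stayed at least 2-fold lower at 12 h. Tgfbi, a secreted matrix protein induced by TGF-beta, was at 11.65, 10.17, 9.23, 8.74, 8.76 and 8.69, and was lower at 12 h than at 6 h. Lum, a proteoglycan of collagen fibrils, was at 10.79, 9.57, 10.08, 10.52, 10.77 and 11.01, low at 6 h and at its 0 h level by 18 h. The higher gene was P4ha2, which hydroxylates collagen (1.20 and 1.06 on its 2 probe sets). At 12 h 4 of the 58 were 2-fold higher and 4 lower, where 1.85% and 1.81% of all genes were. The higher ones, named after their values were seen, were Col1a1, Col6a2, Col6a3 and Col15a1. Col3a1 was 0.85 higher on the probe set counted and 1.17 and 1.02 on its others. Col1a1 was at 10.06, 10.57 and 11.31, Col6a2 at 9.47, 10.25 and 10.76, and Col15a1 at 9.21, 9.87 and 10.69.

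Markers of the uterine epithelium were lower as a list. Of 22, 5 were at least 2-fold lower and 0 higher, where 1.2% and 1.54% of all genes were. The lower ones were Itgb4, Lama3, the desmosome protein Dsp, the adhesion molecule Epcam and Ltf, the secreted protein lactoferrin that estrogen induces. The median log2 difference was -0.53 at 6 h and -0.55 at 12 h, and 18 of the 22 lay below 0, as did 3502 of all 5906 genes. Keratins Krt18 and Krt19 were 0.82 and 0.54 lower, and Cldn3, a tight junction protein, was 0.51 higher (11.21, 11.71 and 11.76). The calls of Ltf, Epcam and Dsp lie near the threshold and ended when all columns were given the same median, as did those of Gadd45a, Gsto1, Alox15, Adipoq, Cldn5 and Ptdss2. Epithelial progesterone targets went both ways on the same array: Ihh, Cyp26a1, Hdc and Lrp2 were higher and Ltf was lower. These genes were picked with their values known. Any part that a smaller share of epithelium in the 6 h pool had in the lower genes was not tested.

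Interferon-stimulated genes were lower in a broad but shallow way. Of 33, 30 were below 0 at 6 h and the median log2 difference was -0.52, and -0.42 at 12 h. Among all 5906 genes 3502 were below 0 at 6 h and 1.2% were at least 2-fold lower. At least 2-fold lower were Psmb9, a subunit of the immunoproteasome, at 8.07, 6.79 and 6.82 at 0, 6 and 12 h, Ifit1, an antiviral protein, at 7.82, 6.60 and 6.60, and the GTPase Gbp3, at 8.07, 6.94 and 7.44. A total of 15 of the 33 were at least 1.5-fold lower and 1 higher, Isg20, against 6.06% and 4.64% of all genes. Irf1, Irf7 and Irf9, factors that turn these genes on, had differences of -0.56, -0.77 and -0.67. They were lower by less than the genes past 2-fold and by more than the list median of -0.52. Among the 18 macrophage and dendritic cell markers 0 were past 2-fold, 17 were below 0 and the median was -0.32, with the class II antigens H2-Aa and H2-Eb1 at -0.45 and -0.53. The part of immune cell content in the interferon list was not tested.

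Markers of several other cell types also differed between the 2 arrays. Of all 5906 genes 3502 were below 0 at 6 h and 1.2% at least 2-fold lower. Among 11 lymphocyte markers 9 were below 0, with a median of -0.21. Ptpn22, a phosphatase of lymphocytes, was at 8.60, 6.67 and 6.72. Of the genes for immunoglobulin light chains, Igkv4-68 and Igkv10-96 were 1.38 and 1.31 lower on the log2 scale, the latter with its other probe set 0.40 lower. Blnk, a B cell adaptor, was 1.57 lower on 1 probe set and 0.69 on the other. All 9 adipocyte markers were below 0, with a median of -0.70; their summed linear level was 9152 at 0 h and 5316 at 6 h, and Adipoq, the fat hormone adiponectin, was at 9.41, 8.38 and 8.45. Fat cells lie in the tissue around the horns, and their part in lower values outside this list was not tested. Mbp and Ncam1 of the 10 nerve markers were lower, Mbp with its other probe set at 0.01. Upk3b, a marker of the mesothelium that covers the horn, was at 8.41, 7.31 and 8.38, low at 6 h alone. Endothelial Cldn5 and Efnb2 were 1.05 and 1.20 lower, while the list of 18 had a median of -0.09. Smooth muscle markers had 0 of 12 past 2-fold and a median of -0.13, and the 16 markers of stroma a median of -0.04. Ovgp1, a protein of the oviduct, was lower on both probe sets, by 1.17 and 0.86 on the log2 scale, with levels of 8.49 and 9.54 at 0 h.

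Growth factor and inflammatory signalling had members on both sides. In the insulin-like growth factor axis 1 of 19 genes was at least 2-fold higher at 6 h and 2 were lower. In LIF, leptin and STAT signalling 0 of 25 were higher and 1 lower. Of 14 genes of the EGF family and its receptors 1 was higher and 0 lower. Of 37 cytokine, chemokine, complement and innate adaptor genes 2 were higher and 1 lower. Igfbp3, which binds insulin-like growth factors, was lower on both probe sets, at 10.59, 9.31, 8.61, 8.30, 8.56 and 8.52 on the one with the larger difference. Lifr, the receptor for the implantation cytokine LIF, was at 8.61, 7.28, 7.10, 6.98, 7.05 and 7.16. Both stayed low on every later array. The shared receptor chain Il6st was 0.59 lower at 6 h, and Lepr, the leptin receptor, was at 8.65, 8.31 and 6.61, a difference of the 12 h array rather than of the first. Ptgr1 and Alox15, enzymes of eicosanoid breakdown and lipid oxidation, were lower. Ptgr1 had log2 differences of -1.38 at 6 h and -0.51 at 12 h, and Alox15 had levels of 8.33, 7.30 and 7.49. Hpgd, which inactivates prostaglandins, was at 8.44, 7.55 and 8.45. Of 29 phospholipase and prostaglandin genes 1 was higher, Pla2g10, and 2 lower, with a median of -0.21. In glutathione and oxidant defence 3 of 45 were lower (Cryz, Gstt2 and Gsto1) and 1 higher, the Gstm2 probe set named above. Among all genes 1.54% were higher and 1.2% lower. Casp1, the inflammasome protease, was at 8.12, 6.60 and 7.44, and the complement regulator Cd55 at 8.64, 7.49 and 7.48.

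At 12 h most of these differences were still there. Both differences use the same 0 h array, so an odd level on that array would appear in both. A difference is called held when it was still at least 2-fold in the same direction at 12 h, partly held from 1.5-fold to 2-fold, and not held below 1.5-fold. Of the 109 higher probe sets, 66 (60.6%) held, 37 partly held and 6 did not. Of the 85 lower ones, 58 (68.2%) held, 22 partly held and 5 did not. Among the higher probe sets, 15 were at the floor at 0 h, so their 12 h differences are lower limits. Where these are classed as partly held or not held, the floor sets the class. Over all genes, 1.83% of 7722 probe sets were at least 2-fold higher than 0 h at 12 h and 1.75% lower. The median log2 difference of the 109 on the arrays of 6, 12, 15, 18 and 24 h was 1.31, 1.20, 1.15, 0.68 and 0.58, and that of the 85 was -1.19, -1.22, -1.11, -1.13 and -0.98. Both sets were chosen by their 6 h values. At all of 12, 15, 18 and 24 h 26 of the higher and 34 of the lower probe sets were still 2-fold apart.

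The higher genes that held with the largest 6 h differences were Acot7, Npl, Lrp2, Mthfd2, Slc2a3, Pla2g10, Myd88, Sec23b, Atp1b1 and Zbtb16. Partly held were Cyp26a1, Fst, Fkbp5, Ggct, Myc, Stx18, Ctps, Angptl4, Nfil3 and Hopx, a homeodomain protein without DNA binding, among others. Cyp26a1, Fst, Ggct and this Nfil3 probe set were at the floor at 0 h, so whether they held in full cannot be told. Ggct, an enzyme of the glutathione cycle, was at the floor at 0 h and at 8.05 and 7.35 at 6 and 12 h, and Stx18, a fusion protein of the endoplasmic reticulum, was at 8.66, 10.06 and 9.57. The 5 genes classed as not held were Errfi1 on both probe sets, Fos, Tiparp, Lcn2 and Pdzk1ip1. Fos was at the floor at 0 h, so its 12 h difference of at least 0.55 is a limit too. Tiparp, an ADP-ribosyltransferase, was at 7.01, 8.24 and 7.43, and Pdzk1ip1, a small membrane protein, at 10.04, 11.10 and 10.56. The number not held was 11 in place of 6 under quantile normalization and with equal column medians. Of the steroid-induced genes described first, Sgk1 and Zbtb16 held, Fkbp5 partly held and Errfi1 and Lcn2 did not. Of the 8 higher genes on the list of Myc, polyamine and nucleolar genes, Rrs1, Srm, Gnl3, Ddx21, Tsr1 and Nop56 held, and Myc and Nop58 partly held.

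Lower genes that held with the largest 6 h differences were Slc15a2, Ptpn22, Abca4, Tgif1, Aldoc, Tspan8, Car2, Efhd1, Blnk and Mcm5. Partly held were Casp1, an immunoglobulin light chain gene, Saa3, Cryz, Emb, Lum, Thrsp, Fxyd3, Cd83 and Gbp3, among others. The 5 that did not hold were Marcks, Ptgr1, Upk3b, Ptdss2 and Calb1. Marcks, a protein that ties membrane to actin, was at 10.10, 8.71, 9.56, 9.73, 9.88 and 9.97. Ptdss2, which makes phosphatidylserine, was at 8.38, 7.36 and 8.24. Calb1, the calcium-binding protein calbindin, was at 10.78, 9.78, 11.16, 11.25, 11.07 and 11.25. It was the 1 probe set of the 194 on the other side of 0 h at 12 h, with a log2 difference of 0.38. Its call at 6 h lies at the threshold and ended under quantile normalization and with equal column medians.

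**Figure D4:**
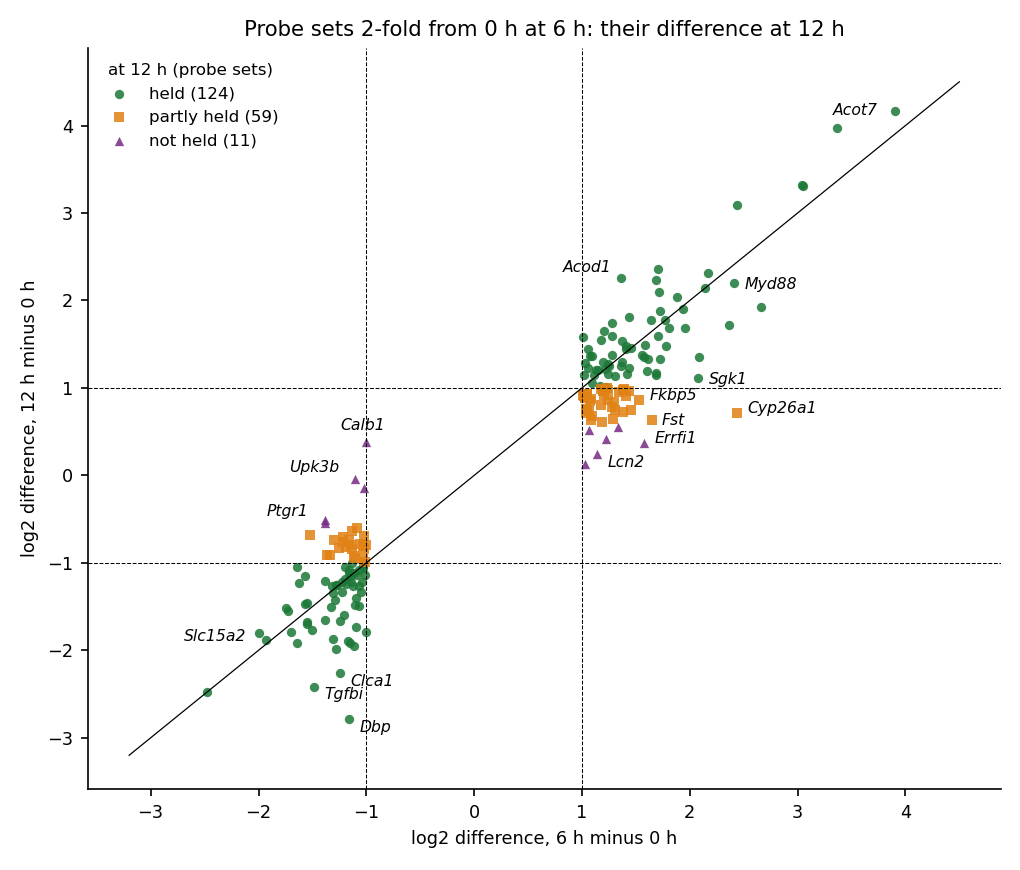
Log2 difference from 0 h at 6 h (x axis) and at 12 h (y axis) for the 194 probe sets at least 2-fold apart at 6 h, coloured by whether the difference held at 12 h; both axes use the same 0 h array, the solid line marks equal differences and dashed lines mark 2-fold. Cyp26a1, Errfi1 and Fst lie well below the line, Calb1 lies above 0, and Tgfbi, Clca1 and Dbp lie further from 0 at 12 h.

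Between the 6 h and 12 h arrays, 24 of 7724 probe sets were at least 2-fold higher at 12 h (0.311%) and 20 lower (0.259%), so the pair was closer than either was to 0 h. Of the probe sets counted at 6 h, 5 moved back toward 0 h by 2-fold or more: Cyp26a1, Errfi1 and Fst on the higher side, with log2 differences from 6 to 12 h of -1.73, -1.20 and -1.02, and Calb1 and Upk3b on the lower side, with 1.38 and 1.06. Further from 0 h at 12 h than at 6 h were 38 of the higher and 37 of the lower probe sets. On the higher side Acod1 went from at least 1.36 to at least 2.26, Gstm2 from 1.71 to 2.36 and Pla2g10 from 2.44 to 3.09. On the lower side Dbp went from -1.16 to -2.79 (a limit, since its 12 h level is at the floor), Clca1 from -1.25 to -2.26, Tgfbi from -1.48 to -2.42 and Ncam1 from -1.11 to -1.95.

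The 2 arrays were alike in scale. The 2% trimmed means of the 6 arrays lay between -4.12% and 3.44% of their median, and the median 6 h difference over all analysed probe sets was -0.05 with an SD of 0.386. Beta-actin control probe sets were 0.24 to 0.31 higher at 6 h, and those of the bacterial spike BioB were 0.08 to 0.19 lower on the log2 scale. Beside differences of 2-fold these are small, and beside the smaller list medians they are not.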

How the data were processed

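RNA pools of whole uterine horns were hybridized to 6 Affymetrix arrays, 1 per time, and groups were taken from the sample titles. The authors deposited log2 expression per probe set; the software and normalization were not given in the sources used here. No value lies under 5.39 (42.0 linear) on any array, which compresses differences of weak genes. Gene names came from the platform annotation, and only probe sets with 1 symbol (6971 of 7731 analysed) were named. For gene lists the probe set with the highest mean level stood for a gene, and 5906 genes had a 6 h difference. Members, lists and thresholds were chosen with earlier results of these data known. Named were the 15 highest and 15 lowest genes, the 8 largest limits in each direction, list members at least 2-fold apart, the first 10 of each class at 12 h, steroid receptors and examples of list members under 2-fold; a few others were chosen after their values were seen. No test was possible with 1 array per time. Python 3.11.15 with pandas 2.3.3 was used, and the steps were tested on simulated data.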

Additional observations from a re-analysis of the deposited data

How the results depend on the processing

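Each count was recomputed with the floor at the 20th or 60th percentile or none, with quantile normalization or equal column medians, with 3 other filters on low values and at 1.5-fold and 3-fold. The higher count of 109 was 349 at 1.5-fold and 31 at 3-fold, and stayed between 74 and 130 under the other 8 settings. Of the higher probe sets, 250 at 1.5-fold and 21 at 3-fold held at 12 h in place of 66. Not held were 40 and 2 at these thresholds and 11 under quantile normalization or equal medians, in place of 6. The lower count of 85 was 449 at 1.5-fold, 9 at 3-fold and 44 under the 60th percentile floor, where 267, 5 and 31 held in place of 58. Lower probe sets not held, 5 in the main setting, numbered 74, 0 and 3 there, 9 with the floor at the 20th percentile and 3 under quantile normalization. With the floor at the 20th percentile 117 were lower. Rescaling moved the sides in opposite directions: quantile normalization gave 120 higher and 73 lower probe sets, and equal medians 122 and 69. All 109 higher probe sets stayed 2-fold higher under both, so every call lost to rescaling was a lower one. None of the 182 probe sets named and counted at 2-fold changed direction under any setting that gave it a value. A floor or filter cannot reverse a difference, and neither rescaling moved any of them by 1.5-fold. Unchanged direction is therefore no support for the calls. Of these 182, 28 were under 2-fold and 40 had no value with the floor at the 60th percentile, 12 were under it with quantile normalization and 16 with equal medians. Lists whose median changed sign, up to 5 of 47 in a setting, lay near 0. Weak genes limit these values, since a floored level hides the size of a difference. The cause of the other shifts was not tested.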
